A study of Arabidopsis thaliana with 12 samples.

Results

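The interaction of gun1 and fug1 was measured as the departure of the double mutant from the sum of the single-mutant effects, over all 12 of the 12 libraries of the series. For each gene the difference gun1 fug1 minus fug1 was set against the difference gun1 minus wild type on the log2 scale. A gene with a value of 0 stands in the double mutant where both single effects added together would place it; a positive value is called above the sum and a negative value below it. The groups were wild type (Col-0), gun1 (gun1-103), fug1 (fug1-3) and gun1 fug1 (gun1-103 fug1-3), with 3 libraries each, numbered as in the sample titles. All were whole seedlings 4 d old, raised on medium with 1% sucrose at 22 °C with 16 h of light a day (white, 100 µmol per m2 and s) against 8 h of darkness, after stratification in the dark at 4 °C for 2 d. Each mutation is represented by 1 allele, so effects of the gene and of that line cannot be told apart. Nothing in the labels says whether replicates came from separate cultures, so p-values measure the spread between these libraries, which may be technical. RNA was taken from whole seedlings, so fewer cells of a type and less RNA per cell cannot be told apart.

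GUN1 is a pentatricopeptide repeat protein of the plastid, known for its part in signalling from plastids to the nucleus. FUG1 is the plastid counterpart of bacterial translation initiation factor IF2, which brings the initiator tRNA to the ribosome. Plastids take most of their proteins from the cytosol as unfolded chains through translocons of the outer and inner envelope (TOC and TIC), and chaperones of the Hsp60, Hsp70, Hsp90 and Hsp100 families receive and fold them. Nuclear genes for plastid proteins are controlled together with the state of the organelle, and the balance of import, synthesis, folding and breakdown there is called plastid proteostasis.

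Both mutated genes followed their labels. GUN1 (AT2G31400) measured 38.7, 36.4 and 29.6 CPM (counts scaled by TMM to a common library size) in wild type, 8.94, 9.44 and 7.20 in gun1, 31.8, 28.6 and 24.6 in fug1, and 7.89, 10.7 and 8.40 in gun1 fug1. FUG1 (AT1G17220) measured 44.4, 35.9 and 26.3 CPM in wild type, 33.8, 17.8 and 13.9 in gun1, 5.70, 11.2 and 9.29 in fug1, and 9.94, 8.45 and 15.6 in gun1 fug1. The lines with a mutated gene lay below wild type for it in every library. The deviation from the sum was 0.41 ± 0.30 on the log2 scale (SE; adjusted p = 0.475) for GUN1 and 0.90 ± 0.47 (adjusted p = 0.317) for FUG1, so neither passed the test.

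One library stood apart. Replicate 3 of gun1 fug1 had 23881 genes without a count, against 13359 to 16417 in the other 11, and a TMM factor of 0.0723, against 0.80 to 2.05. In it 1 count was worth 1.2 CPM, against 0.0396 to 0.136 CPM elsewhere, so its levels for genes of a few CPM rest on a handful of reads. Totals ran from 8519197 to 12360838 counts per library. Every result is therefore given with all 12 libraries and with the 11 that remain without that library. RNA markers of other organs also moved with genotype. Averaged over 13 genes of the root and its hairs, the log2 level relative to wild type was 2.33 ± 1.34 (SD, n = 3) for gun1, 2.83 ± 0.44 for fug1 and 3.04 ± 0.68 for the double mutant. In the same order, 5 genes of seed reserves and embryo stood at 2.27 ± 0.47, 2.07 ± 0.33 and 1.99 ± 0.57. Both lists were thus higher than wild type (0 ± 0.70 and 0 ± 0.54) in all 3 mutants, by amounts within 1 SD of one another. Their part in the results was not tested beyond a fit with the root level as covariate. The root level ran from -0.45 to 0.80 in wild-type libraries and from 1.05 to 3.71 in mutant libraries. It moved with genotype, so that fit cannot separate the 2.

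In the double mutant, the median gene moved by both single mutants stood near its single-mutant level rather than at the sum. Such genes were picked from the gun1, fug1 and wild-type libraries that also enter the sum, so this is a description and no test. The plastid chaperone, protein import and ferritin genes called above the sum stood at the wild-type level or above it. With 12 libraries, 123 of 15371 genes (0.8%) were above the sum and 83 (0.54%) below it at an adjusted p under 0.05 (edgeR's quasi-likelihood test, Benjamini-Hochberg adjustment). Without gun1 fug1 replicate 3, 255 of 16201 genes (1.57%) were above and 177 (1.09%) below. Of the 206 genes called with 12 libraries, 201 were also called with 11, with the same sign: 121 above and 80 below. The other 5 were called with 12 libraries only: the plastid ribosomal protein gene RPL24, FNR2 (ferredoxin-NADP oxidoreductase), the suberin gene CYP86A1, the serine synthesis gene EDA9 and AT5G42510 (dirigent-like), and 231 genes were called with 11 libraries only. A simulation without single-mutant effects recovered 91% of 4-fold deviations and 6% of 2-fold deviations with 12 libraries. With 11 libraries it recovered 98% and 20%. These shares are for genes with a mean of at least 50 counts.

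Sorted by the direction of the single mutants, the deviations had opposite signs. Against wild type, 3.52% of genes were called higher and 2.42% lower in gun1, and 9.94% higher and 7.88% lower in fug1 (5.71%, 4.1%, 13.2% and 9.77% with 11 libraries). Of 469 genes called higher in both gun1 and fug1, 466 had a negative deviation, 53 were called below the sum and 0 above. Their median log2 change was 1.52 for gun1, 1.65 for fug1 and 1.80 for the double mutant, where the sum would be 3.10, and the median deviation was -1.39. Of 302 genes called lower in both, 295 had a positive deviation, 64 were called above the sum and 0 below. Their medians were -1.12 for gun1, -1.28 for fug1 and -1.21 for the double mutant, where the sum would be -2.41, and the median deviation was 1.29. Over all genes tested the median deviation was -0.08, and 7072 of 15371 deviations were positive and 8299 negative. With 11 libraries 7597 of 16201 were positive and 8604 negative. Of 1059 genes higher in fug1 alone, 12 were below (median -0.70), and of 909 lower in fug1 alone, 29 were above and 1 below (median 0.81). Of 72 higher in gun1 alone none was called by edgeR (median -1.16, all 72 negative) with 12 libraries, and 6 of 130 were below with 11. Of 70 lower in gun1 alone, 11 were above (median 1.37). Over all genes, 1337 had a positive and 1529 a negative deviation at an unadjusted p under 0.05. Among 12490 genes called in neither, 19 were above and 17 below (median -0.05). Without gun1 fug1 replicate 3 the classes kept these signs: the 795 genes higher in both had a median of -1.06 with 99 below and 1 above, and the 528 lower in both a median of 1.16 with 135 above and 0 below. These classes share the gun1, fug1 and wild-type libraries with the deviation, so that an error in those libraries enters both, with opposite sign, and the counts and medians are a description and no test.

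**Figure D1:**
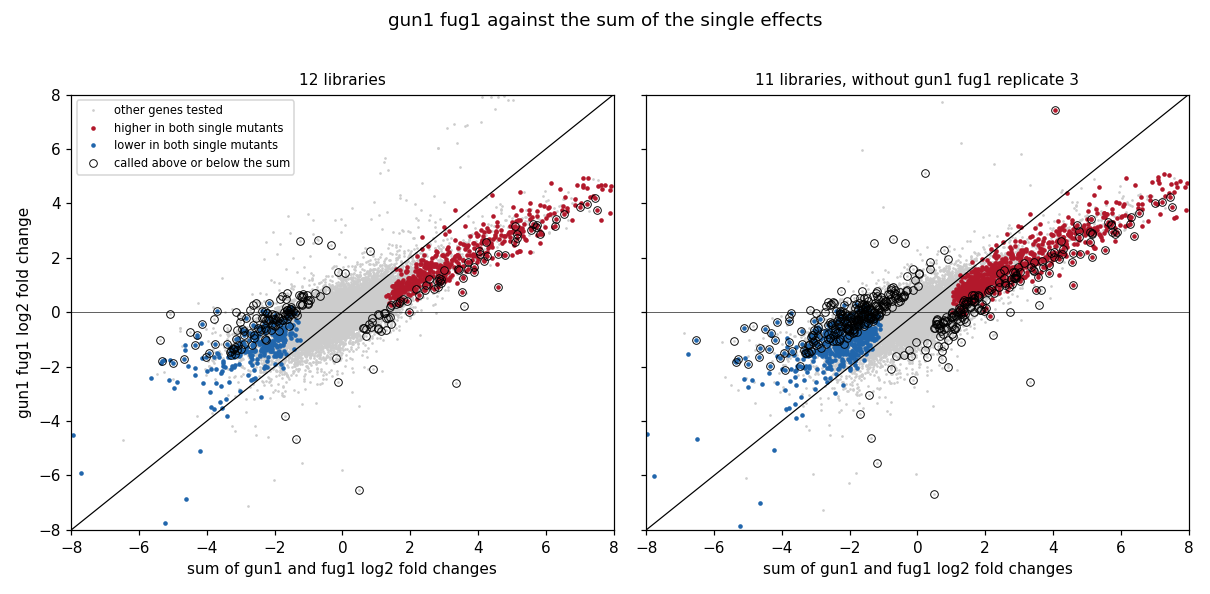
Each point is a gene, with the sum of its gun1 and fug1 log2 fold changes on the x axis and its gun1 fug1 log2 fold change on the y axis, for 12 libraries (left) and for 11 (right); the diagonal is exact additivity, open circles mark called genes, and 22 and 19 genes lie outside the axis limits. Genes higher in both single mutants run below the diagonal and genes lower in both run above it, with medians of -1.39 and 1.29 for 12 libraries.

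Where the double mutant stood among the genotypes differed between called genes. Of the 121 genes above the sum in both fits, 42 had a gun1 fug1 estimate higher than wild type and both single mutants with 11 libraries, and 79 lay within the range of the other 3 genotypes. Of the 80 below, 25 lay lower than all 3, 43 within their range and 12 above all 3 but short of the sum. Over all genes tested with 11 libraries, 9543 of 16201 had a gun1 fug1 estimate outside the range of the other 3 genotypes. Such a place is therefore not particular to the called genes. Of the genes above the sum, gun1 fug1 was itself called higher than each of the other genotypes for 7 genes with 12 libraries and 11 with 11. Of those below, it was called lower than each for 5 and 8. Over all genes, gun1 fug1 was called higher than wild type for 12% and lower for 9.88%, higher than gun1 for 1.61% and lower for 1.48%, and higher than fug1 for 0.163% and lower for 0.104% with 12 libraries. With 11 libraries these shares were 14.5%, 10.9%, 2.97%, 2.09%, 0.364% and 0.352% in the same order.

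The number of calls depended on single libraries. With 1 library left out, between 13 and 385 genes were above and between 11 and 305 below. The fewest above came without gun1 fug1 replicate 1 (13) and wild type replicate 2 (18), and the most without gun1 replicate 1 (385) and wild type replicate 3 (297). Of 55 genes described in this section and called with 12 libraries, 13 stayed called whichever single library was left out: MRD1, LTP4, NCED3, LOX2, PCAP1, FER1, CR88, CIPK20, SKIP5, CPN60B, HDR, OLEO1 and BCB. For the others with a p from 12 libraries printed here, the range of adjusted p over the 12 such fits follows it. Scaled by library totals, which leaves the composition of gun1 fug1 replicate 3 uncorrected, 0 genes passed with 12 libraries and 7175 above and 40 below with 11, where the median of all genes moved to 1.05. With the root level as covariate, 9 genes were above and 9 below with 12 libraries, and 67 and 93 with 11.

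**Figure D2:**
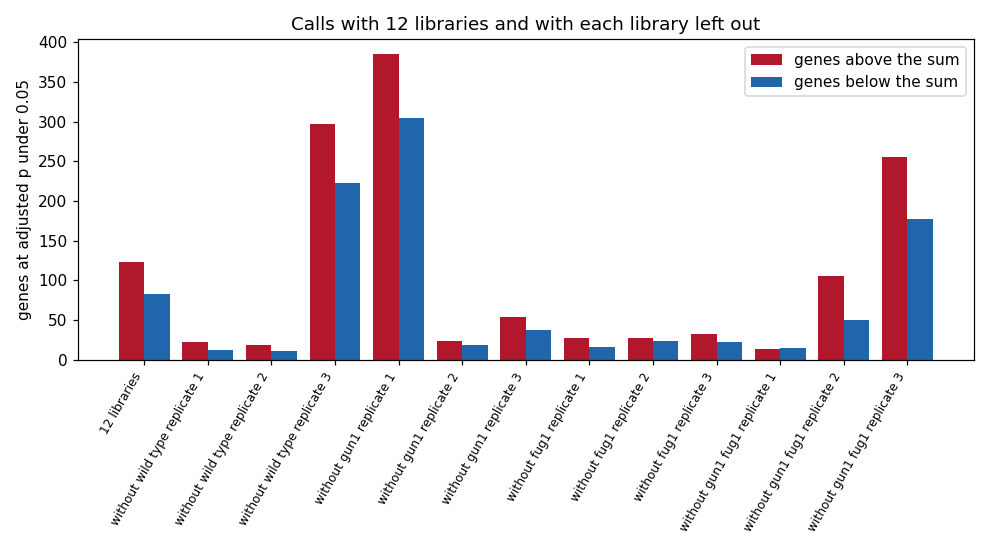
Bars give the number of genes above (red) and below (blue) the sum at an adjusted p under 0.05 with 12 libraries and with each library left out in turn. Leaving out gun1 replicate 1 gave 385 and 305 calls, and leaving out gun1 fug1 replicate 1 gave 13 and 15.

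Several plastid chaperone genes were above the sum. Of 8 tested members of the list, 4 were called above and 0 below with 12 libraries, all 8 were positive and the median was 1.45; with 11 libraries 5 of 9 were above, 9 were positive and the median was 1.72. CR88 (AT2G04030, chr2:1281754-1286144, plus strand), the plastid Hsp90, measured 13.1, 13.6 and 7.81 CPM in wild type, 6.26, 5.06 and 5.36 in gun1, 3.53, 5 and 7.16 in fug1, and 16.2, 11.3 and 18.0 in gun1 fug1. It fell in both single mutants, by 1.05 and 1.11 on the log2 scale (adjusted p = 0.0137 and 0.00525), and the double mutant overlapped wild type, clear of both single mutants. Its deviation was 2.48 ± 0.36 (SE; adjusted p = 0.00208), and 2.44 ± 0.36 (adjusted p = 0.00214) with 11 libraries. CPN60B (AT1G55490, chr1:20715563-20719261, minus strand), a beta subunit of the chaperonin that folds Rubisco, measured 13.1, 12.3 and 8.98 CPM in wild type, 7.98, 5.75 and 5.66 in gun1, 5.43, 5.95 and 6.20 in fug1, and 15.6, 12.3 and 36.0 in gun1 fug1. The highest value is that of replicate 3; the deviation was 2.38 ± 0.39 (adjusted p = 0.00562) with it and 2.09 ± 0.29 (adjusted p = 0.00152) without it.

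A second beta subunit and an Hsp70, which were called in neither single mutant, were highest in the double mutant. Cpn60beta2 (AT3G13470) measured 11.2, 7.18 and 9.32 CPM in wild type, 11.6, 8.32 and 7.58 in gun1, 8.56, 7.74 and 9.39 in fug1, and 30.3, 25.4 and 15.6 in gun1 fug1. All 3 double-mutant libraries lay above the other 9, and the deviation was 1.58 ± 0.32 (adjusted p = 0.0175, and 0.00346 to 0.11 with 1 library left out). cpHsc70-1 (AT4G24280), a stromal Hsp70, measured 38.2, 38.7 and 39.3 CPM in wild type, 35.6, 30.6 and 31.4 in gun1, 35, 26.3 and 36.6 in fug1, and 69.3, 61.5 and 74.4 in gun1 fug1, above all other libraries, while the 6 single-mutant libraries lay below the 3 of wild type. Its deviation was 1.31 ± 0.28 (adjusted p = 0.0217, and 0.00743 to 0.103). The second stromal Hsp70 gene, cpHsc70-2, passed with 11 libraries only (0.97 ± 0.26, adjusted p = 0.0485), and the Hsp100 gene CLPB3 (1.63 ± 0.49, adjusted p = 0.108), the alpha subunit gene CPN60A (0.74 ± 0.28, adjusted p = 0.17) and the co-chaperonin gene CPN20 (0.39 ± 0.32, adjusted p = 0.526) did not. The small heat shock protein gene HSP21 was tested with 11 libraries only: it measured 0, 0.0528 and 0.0558 CPM in wild type, 0 in all 3 fug1 libraries, at most 0.482 in gun1, and 9.56, 7.71 and 2.40 in gun1 fug1, and its deviation did not pass (adjusted p = 0.0768). HSP21 came through the low-count filter only by its gun1 fug1 libraries. Its positive sign in the list with 11 libraries is therefore no support for a rise of the list. CPN60B and Cpn60beta2 are closely related copies, and reads shared between them could be split by the counting.

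**Figure D3:**
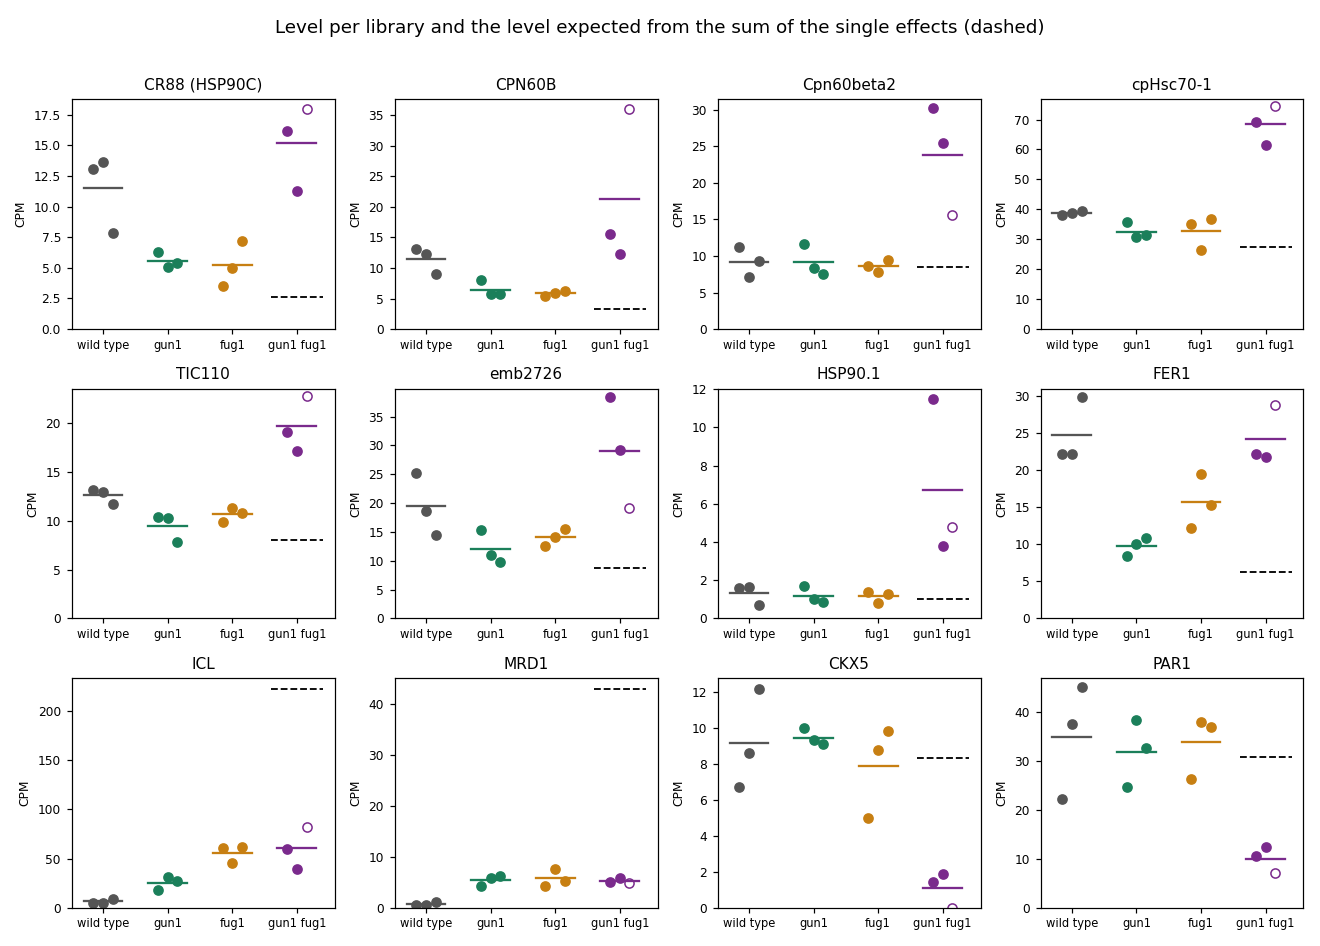
CPM per library (points), group mean (line) and the level that the sum of the single effects gives for gun1 fug1 (dashed, from the fit with 12 libraries) for 12 genes; gun1 fug1 replicate 3 is an open circle and each y axis starts at 0. The double mutant stands above the dashed line from CR88 to FER1 and below it from ICL to PAR1.

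The 250 bases upstream of the annotated start are shown for Cpn60beta2 and HSP21, because these chaperone genes had their highest levels in the double mutant and hold the core of a heat shock element. Sequences are RefSeq TAIR10.1, 5′ to 3′ on the strand of the gene, with matches to GAANNTTC, which reads the same on both strands, in capitals.
Cpn60beta2, chr3:4388965-4389214, plus strand: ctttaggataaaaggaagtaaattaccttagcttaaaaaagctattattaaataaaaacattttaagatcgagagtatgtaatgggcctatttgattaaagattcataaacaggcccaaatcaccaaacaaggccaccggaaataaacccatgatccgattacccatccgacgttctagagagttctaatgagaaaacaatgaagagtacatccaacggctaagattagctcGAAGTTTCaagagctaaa
HSP21, chr4:13819972-13820221, minus strand: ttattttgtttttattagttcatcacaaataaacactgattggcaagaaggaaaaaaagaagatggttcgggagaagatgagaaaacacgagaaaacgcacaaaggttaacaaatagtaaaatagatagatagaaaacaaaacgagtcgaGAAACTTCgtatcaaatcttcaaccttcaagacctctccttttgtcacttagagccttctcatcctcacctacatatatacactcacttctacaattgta
The motif was found in 2 of the 9 promoters of the plastid chaperone list, and in 9.55% of 27443 windows of the same length before protein-coding genes. A match is a string of letters and says nothing about binding, and CR88, CPN60B and cpHsc70-1, which were above the sum, had none in this window.

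Some genes for protein import were above the sum. Of 11 tested TOC and TIC genes, 3 were above and 0 below with 12 libraries (median 1.02, 9 positive) and 4 with 11 (median 1.07, 10 positive). TIC110 (AT1G06950), the stroma-facing scaffold of the inner translocon, measured 13.2, 13.0 and 11.7 CPM in wild type, 10.4, 10.3 and 7.81 in gun1, 9.92, 11.3 and 10.8 in fug1, and 19.1, 17.2 and 22.8 in gun1 fug1. Each double-mutant library exceeded the other 9, with a deviation of 1.24 ± 0.27 (adjusted p = 0.023, and 0.0123 to 0.114 with 1 library left out). AT5G01590 (synonym TIC56 in RefSeq) measured 9.67, 8.23 and 7.09 CPM in wild type, 6.12, 4.46 and 4.98 in gun1, 6.93, 7.26 and 5.91 in fug1, and 12.4, 10.7 and 10.8 in gun1 fug1 (deviation 1.46 ± 0.30, adjusted p = 0.0175, and 0.00692 to 0.11). emb1211 (AT5G22640, synonym TIC100), which with TIC56 belongs to a large inner-envelope complex, deviated by 1.48 ± 0.32 (adjusted p = 0.0203, and 0.00729 to 0.156). TOC159, the main preprotein receptor, passed with 11 libraries only (1.04 ± 0.25, adjusted p = 0.0308). The channel gene TOC75-III had a deviation of -0.21 ± 0.26 (adjusted p = 0.697), so the list did not move as one.

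Plastid translation factors, the class to which FUG1 belongs, gave 3 of 8 above the sum in both fits (medians 1.27 and 1.34). emb2726 (AT4G29060), an elongation factor Ts, measured 25.3, 18.7 and 14.5 CPM in wild type, 15.3, 11 and 9.87 in gun1, 12.6, 14.1 and 15.5 in fug1, and 38.4, 29.3 and 19.2 in gun1 fug1. Replicate 3 of the double mutant fell within the wild-type range and the other 2 lay above it, with a deviation of 1.82 ± 0.34 (adjusted p = 0.0107, and 0.00267 to 0.0794 with 1 library left out). SCO1 (AT1G62750), the plastid elongation factor G, measured 69.4, 73.7 and 43.9 CPM in wild type, 49.3, 31.2 and 22.4 in gun1, 40.5, 35.1 and 32.9 in fug1, and 62.5, 50.4 and 73.2 in gun1 fug1 (deviation 1.62 ± 0.37, adjusted p = 0.0308, and 0.00429 to 0.129). RRF, the ribosome recycling factor, deviated by 1.45 ± 0.37 (adjusted p = 0.0486, and 0.00396 to 0.168). RABE1b, the plastid elongation factor Tu, had -0.46 ± 0.37 (adjusted p = 0.526). Among 20 nuclear genes of the plastid transcription machinery none passed in either fit, although all 20 were positive with a median of 1.2 (1.21 with 11 libraries). Over all genes tested, 7072 of 15371 were positive with 12 libraries and 7597 of 16201 with 11. Of 38 nuclear genes for plastid ribosomal proteins, 2 were above with 12 libraries (median 0.14) and 1 with 11 (median 0.27). RPL24 measured 29.7, 30.4 and 17.9 CPM in wild type, 14, 10 and 6.20 in gun1, 10.6, 5.95 and 8.81 in fug1, and 10.3, 9.75 and 12 in gun1 fug1, so the double mutant was as low as the single mutants. Its deviation was 1.65 ± 0.39 (adjusted p = 0.0398, and 0.00532 to 0.163 with 1 library left out) with 12 libraries and 1.63 ± 0.43 (adjusted p = 0.0543) with 11. AT4G17560, annotated as a ribosomal protein L19, deviated by 1.63 ± 0.39 (adjusted p = 0.0369, and 0.0143 to 0.177).

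**Figure D4:**
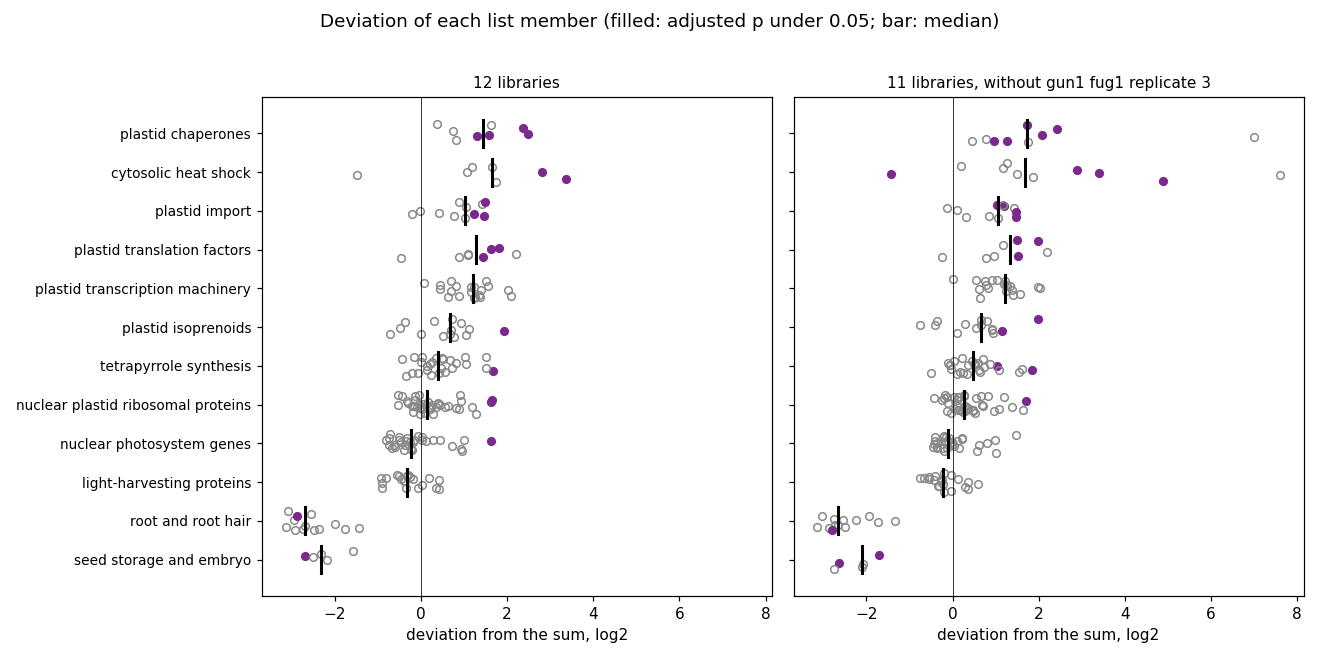
Each point is the deviation of 1 list member from the sum (log2), with 12 libraries (left) and 11 (right); filled points are called and bars are medians. Chaperones, import, translation factors and transcription machinery have medians of 1.02 to 1.45 with 12 libraries, and the root list has -2.69.

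A few cytosolic heat shock genes were high in the double mutant. Of 7 tested, 2 were above the sum with 12 libraries (median 1.64); with 11 libraries 3 of 10 were above and 1 below (median 1.68). HSP90.1 (AT5G52640), the inducible cytosolic Hsp90, measured 1.58, 1.64 and 0.725 CPM in wild type, 1.72, 1.03 and 0.842 in gun1, 1.36, 0.834 and 1.26 in fug1, and 11.5, 3.81 and 4.80 in gun1 fug1, without overlap. Its deviation was 2.81 ± 0.63 (adjusted p = 0.0296, and 0.00773 to 0.214 with 1 library left out). AT5G48570 (synonym ROF2), an FKBP-type prolyl isomerase, measured 0.634, 1.16 and 0.670 CPM in wild type, 1.17, 1.03 and 0.689 in gun1, 0.136, 0.238 and 0.774 in fug1, and 6.98, 3.44 and 4.80 in gun1 fug1 (deviation 3.37 ± 0.67, adjusted p = 0.0154, and 0.00707 to 0.111). HSP18.2, a small heat shock protein, was tested with 11 libraries only. It measured 6.14 and 4.64 CPM in replicates 1 and 2 of gun1 fug1 and at most 0.482 CPM in the other genotypes. It passed (4.88 ± 1.19, adjusted p = 0.0308). HSP18.2 came through the low-count filter only by its gun1 fug1 libraries. Its positive sign and its place among the 3 above are therefore no support for a rise of the list. The repressor-type heat shock factor gene HSFB2A went the other way (-1.43 ± 0.37, adjusted p = 0.039 with 11 libraries and 0.0511 with 12).

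GolS1, ERD5 and BCB were also called above every other genotype in the double mutant and were chosen after their values were seen. GolS1 (AT2G47180), which makes galactinol for raffinose sugars, measured 3.41, 4.12 and 5.36 CPM in wild type, 6.95, 5.84 and 6.97 in gun1, 4.48, 4.05 and 5.81 in fug1, and 25.9, 15.6 and 18.0 in gun1 fug1 (deviation 1.45 ± 0.34, adjusted p = 0.0328, and 0.017 to 0.22 with 1 library left out). ERD5 (AT3G30775), the mitochondrial proline dehydrogenase, measured 11.2, 12.6 and 8.59 CPM in wild type, 6.95, 13.1 and 11.4 in gun1, 9.78, 13.7 and 11.4 in fug1, and 33.5, 24.5 and 30.0 in gun1 fug1 (1.37 ± 0.33, adjusted p = 0.0371, and 0.0162 to 0.191). BCB (AT5G20230), a blue copper-binding protein of stressed tissue, measured 1.15, 0.369 and 1.12 CPM in wild type, 0.413, 0.257 and 0.383 in gun1, 0.679, 1.07 and 0.968 in fug1, and 3.41, 7.15 and 7.20 in gun1 fug1 (3.86 ± 0.66, adjusted p = 0.00665). In these 3 genes every double-mutant library exceeded every other library. COR47 and EMB1865 were called above every genotype without replicate 3 only. COR47, a dehydrin of cold and drought, measured 16.5, 14.8 and 8.40 CPM in gun1 fug1 and between 3.95 and 11.8 elsewhere, and deviated by 1.82 ± 0.37 (adjusted p = 0.0201, and 0.00825 to 0.113). EMB1865, a CRM-domain splicing factor of the plastid, measured 7.05, 4.92 and 3.60 CPM in gun1 fug1 and 1.36 to 3.90 elsewhere (2.34 ± 0.42, adjusted p = 0.00907, and 0.00346 to 0.0794).

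Most of a further group above the sum were called lower in one or both single mutants. FER1 (AT5G01600), the plastid iron store ferritin, measured 22.2, 22.1 and 29.8 CPM in wild type, 8.46, 10 and 10.8 in gun1, 12.2, 19.4 and 15.3 in fug1, and 22.2, 21.7 and 28.8 in gun1 fug1, so the double mutant overlapped wild type and lay above every single-mutant library. Its deviation was 1.91 ± 0.30 (adjusted p = 0.0036). FER4, a second ferritin that was called in neither single mutant, measured 2.50, 3.53 and 3.60 CPM in gun1 fug1 and 1.07 to 2.01 CPM elsewhere, and deviated by 1.91 ± 0.45 (adjusted p = 0.0328, and 0.0194 to 0.107 with 1 library left out). HDR (AT4G34350), the last enzyme of the plastid isoprenoid precursor pathway, measured 47.3, 51.5 and 30.4 CPM in wild type, 25.3, 17.1 and 17.9 in gun1, 17.2, 21.0 and 21.9 in fug1, and 43.2, 30.4 and 33.6 in gun1 fug1 (1.94 ± 0.33, adjusted p = 0.00615). HEMA1 (AT1G58290), the glutamyl-tRNA reductase that opens tetrapyrrole synthesis, measured 63.3, 65.0 and 41.9 CPM in wild type, 44.0, 29.4 and 21.7 in gun1, 29.6, 27.4 and 25.7 in fug1, and 63.3, 45.9 and 34.8 in gun1 fug1. For HDR the double mutant lay above all single-mutant libraries, and for HEMA1 it overlapped gun1; HEMA1 deviated by 1.68 ± 0.36 (adjusted p = 0.0217, and 0.00429 to 0.139). HDR and HEMA1 were the members called with 12 libraries among 14 isoprenoid and 26 tetrapyrrole genes (medians 0.68 and 0.39), and with 11 libraries PDS3, phytoene desaturase (1.16 ± 0.30, adjusted p = 0.04), and ALB1, a magnesium chelatase subunit (1.04 ± 0.25, adjusted p = 0.0257), joined them.

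CIPK20, a calcium-regulated kinase, measured 6.97, 6.75 and 3.91 CPM in wild type, 2.61, 1.97 and 2.14 in gun1, 2.99, 3.33 and 3.19 in fug1, and 7.13, 5.11 and 6 in gun1 fug1 (deviation 2.33 ± 0.39, adjusted p = 0.00519). PCAP1, a cation-binding protein of the plasma membrane, went only part of the way, with 33.9, 31.3 and 23.8 CPM in wild type, 11.2, 8.93 and 11.7 in gun1, 8.69, 13.2 and 10.2 in fug1, and 20.0, 17.7 and 20.4 in gun1 fug1. Its libraries formed 3 levels that did not overlap, and its deviation of 2.32 ± 0.30 (adjusted p = 0.000878) remained called in each fit with 1 library left out. EX2, the plastid protein EXECUTER2 of singlet oxygen signalling, deviated by 1.63 ± 0.34 (adjusted p = 0.0203, and 0.00623 to 0.154), and its partner EX1 passed with 11 libraries only (1.25 ± 0.32, adjusted p = 0.0388). CCD1, a carotenoid cleavage enzyme, deviated by 1.62 ± 0.31 (adjusted p = 0.0123, and 0.00214 to 0.0827), CYP72A15 by 1.74 ± 0.38 (adjusted p = 0.023, and 0.00751 to 0.169) and FNR2 by 1.62 ± 0.39 (adjusted p = 0.0429, and 0.00464 to 0.16, with 0.0501 in the 11 libraries). JAC1, needed for chloroplast movement in weak light, deviated by 1.43 ± 0.36 (adjusted p = 0.0459, and 0.0087 to 0.243) and HOL1, a methyl halide transferase, by 1.26 ± 0.32 (adjusted p = 0.0451, and 0.0123 to 0.252).

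SKIP5 (AT3G54480, chr3:20170654-20173530, minus strand), an F-box protein, had the largest positive deviation among the genes called in both fits and named here. It measured 4.44, 3.96 and 3.85 CPM in wild type, 0.138, 0.0858 and 0.0765 in gun1, 3.80, 2.26 and 4.65 in fug1, and 2.58, 1.3 and 2.40 in gun1 fug1. The gun1 libraries held 2, 1 and 1 counts of it, and the double mutant, which carries the same gun1-103 allele, held 34, 14 and 2. Its deviation was 4.35 ± 0.64 (adjusted p = 0.00208), and 4.36 ± 0.63 (adjusted p = 0.00158) with 11 libraries.

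Genes higher in both single mutants stood in the double mutant close to the single-mutant level. ICL (AT3G21720), the isocitrate lyase of the glyoxylate cycle that turns seed oil into sugar, measured 5.27, 5.33 and 8.87 CPM in wild type, 18.4, 31.5 and 27.1 in gun1, 60.4, 45.4 and 62.2 in fug1, and 59.7, 39.8 and 81.6 in gun1 fug1. The double mutant overlapped fug1, and its deviation was -1.93 ± 0.38 (adjusted p = 0.0155, and 0.00246 to 0.0687 with 1 library left out). OLEO1 (AT4G25140), an oleosin of seed oil bodies, measured 0.475, 0.528 and 1.45 CPM in wild type, 3.51, 4.72 and 4.90 in gun1, 3.12, 5.24 and 3.78 in fug1, and 3.64, 3.44 and 2.40 in gun1 fug1 (-2.68 ± 0.49, adjusted p = 0.00907). CRA1 (AT5G44120), a cruciferin seed storage protein, had its highest mean in the double mutant, with 37.1, 30.4 and 49.2 CPM, against 14.8, 18.3 and 34.1 in gun1, 13.6, 15.6 and 17.5 in fug1 and 2.27 to 4.18 in wild type. Its log2 deviation was -1.57 ± 0.40 (adjusted p = 0.0511) with 12 libraries and -1.70 ± 0.42 (adjusted p = 0.0466) with 11, while on the linear CPM scale it stood above the sum. All 5 tested seed genes were negative (median -2.32), with 1 called below with 12 libraries and 2 with 11.

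All 13 tested root and root hair genes were negative too (median -2.69, and -2.65 with 11 libraries), but 1 was called, MRN1, the root triterpene enzyme marneral synthase. MRN1 measured 0.515, 0.475 and 0.893 CPM in wild type, 2.89, 4.21 and 10 in gun1, 6.52, 3.69 and 6 in fug1, and 6.68, 7.34 and 4.80 in gun1 fug1, with a deviation of -2.86 ± 0.58 (adjusted p = 0.0226, and 0.00138 to 0.101 with 1 library left out). CYP86A1, a fatty acid hydroxylase of root suberin, measured 0.436, 1.00 and 2.46 CPM in wild type, 5.02, 7.29 and 9.49 in gun1, 10.7, 11 and 9.20 in fug1, and 11.7, 9.84 and 6 in gun1 fug1 (-2.55 ± 0.57, adjusted p = 0.0424, and 0.000326 to 0.154, with 0.0531 in the 11 libraries). In both genes the 3 mutants overlapped one another and lay above wild type. MRD1 (AT1G53480) measured 0.555, 0.528 and 1.17 CPM in wild type, 4.26, 5.92 and 6.28 in gun1, 4.35, 7.62 and 5.32 in fug1, and 5.16, 5.76 and 4.80 in gun1 fug1 (-2.98 ± 0.43, adjusted p = 0.00208). EDA9, an enzyme of plastid serine synthesis, deviated by -1.45 ± 0.37 (adjusted p = 0.0486, and 0.00532 to 0.191 with 1 library left out, with 0.0642 in the 11 libraries).

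Further genes below the sum were called higher in one or both single mutants. NCED3 (AT3G14440), the key enzyme of abscisic acid synthesis, measured 6.18, 7.39 and 7.70 CPM in wild type, 14.0, 11.9 and 11.9 in gun1, 22.0, 14.6 and 10.1 in fug1, and 7.96, 6.5 and 6 in gun1 fug1, overlapping wild type and below every single-mutant library (deviation -1.95 ± 0.34, adjusted p = 0.00691). LTP4, a lipid transfer protein, measured 0.555, 0.475 and 0.837 CPM in wild type, 3.16, 3.43 and 5.82 in gun1, 2.85, 1.79 and 2.23 in fug1, and 1.74, 0.650 and 0 in gun1 fug1 (-3.68 ± 0.58, adjusted p = 0.0036). Its double-mutant libraries lay below all single-mutant libraries, 1 of them above the wild-type range and 1 below it, and the estimate was 0.91 log2 above wild type (adjusted p = 0.169). LOX2 (AT3G45140), a plastid lipoxygenase of jasmonate synthesis, measured 23.2, 20.7 and 16.2 CPM in wild type, 30.7, 24.2 and 31.4 in gun1, 38.6, 28.6 and 47.0 in fug1, and 19.3, 11.8 and 10.8 in gun1 fug1. The double mutant was below every single-mutant library for LOX2, at -1.88 ± 0.34 (adjusted p = 0.00907). ZIF1, a vacuolar zinc and nicotianamine transporter, deviated by -1.65 ± 0.32 (adjusted p = 0.0127, and 0.00618 to 0.0773 with 1 library left out), the cellulase gene GH9C2 by -1.52 ± 0.33 (adjusted p = 0.0217, and 0.00436 to 0.111) and the arabinogalactan protein gene FLA1 by -1.29 ± 0.28 (adjusted p = 0.023, and 0.0132 to 0.154). BCAT4, an enzyme of methionine-derived glucosinolates, rests on few reads. Its counts were 6, 5 and 7 in wild type, 13, 11 and 11 in gun1, 7, 3 and 17 in fug1, and 0, 1 and 0 in gun1 fug1. It was called below the sum (adjusted p = 0.00941, and 0.00562 to 0.0827), with a size that such counts do not fix.

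Another set below the sum had its lowest level in the double mutant. CKX5 (AT1G75450), a cytokinin oxidase, measured 6.73, 8.6 and 12.2 CPM in wild type, 10, 9.35 and 9.11 in gun1, 5.03, 8.81 and 9.87 in fug1, and 1.44, 1.86 and 0 in gun1 fug1 (deviation -2.41 ± 0.43, adjusted p = 0.0087, and 0.00127 to 0.0724 with 1 library left out). PAR1 (AT2G42870), an atypical bHLH protein of the shade response, measured 22.3, 37.6 and 45.1 CPM in wild type, 24.6, 38.4 and 32.6 in gun1, 26.4, 38.0 and 37.0 in fug1, and 10.5, 12.5 and 7.20 in gun1 fug1 (-1.51 ± 0.36, adjusted p = 0.039, and 0.0129 to 0.16). The double mutant lay under every other library for both. RTFL18, a small peptide of the ROTUNDIFOLIA family, measured 0.0759, 0.279 and 0 CPM in gun1 fug1 and 1.89 to 6.53 CPM elsewhere (-3.28 ± 0.80, adjusted p = 0.0402, and 0.00848 to 0.249). AT1G47400, with no function given in the annotation, had 0 counts in all 3 double-mutant libraries and 3 to 35 counts in the others (adjusted p = 0.023, and 0.0162 to 0.152), and no fold is given against a group at 0. CLV1, a receptor kinase that limits the shoot meristem, measured 9.86, 8.36 and 9.60 CPM in gun1 fug1 and 12.4 to 19.8 CPM elsewhere (-1.20 ± 0.27, adjusted p = 0.0281, and 0.0136 to 0.107). APS3, an ATP sulfurylase, deviated by -1.81 ± 0.39 (adjusted p = 0.0203, and 0.00856 to 0.0838). ESM1, a modifier of glucosinolate breakdown, measured 0.910, 1.95 and 4.80 CPM in gun1 fug1, against 3.93 to 6.78 in fug1 and 7.58 to 13.3 in gun1 and wild type, and was below with 11 libraries only (-1.60 ± 0.40, adjusted p = 0.0322). EXPA11, an expansin that loosens cell walls, deviated by -1.10 ± 0.27 (adjusted p = 0.0392, and 0.0208 to 0.168). CKX5, PAR1 and RTFL18, with AT1G74675 (adjusted p = 0.0328, and 0.0171 to 0.103) and AT4G25780 (adjusted p = 0.0386, and 0.0251 to 0.116), were the 5 called lower than each other genotype with 12 libraries; these, apart from CKX5, and AT1G47400 were chosen after their values were seen.

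The median of plastid-encoded photosynthesis genes turned sign with gun1 fug1 replicate 3. Of 35 photosynthesis genes, 0 were called in either direction with 12 libraries (median 0.64, 23 positive), and 16 were below the sum with 11 (median -1.18, 27 negative). rbcL, the large subunit of Rubisco, had a deviation of -0.03 ± 0.93 (adjusted p = 0.995) with all libraries and -1.89 ± 0.31 (adjusted p = 0.00305) without replicate 3. Its level in gun1 fug1 was 99800, 121000 and 990000 CPM, against 88000, 98400 and 113000 in wild type, 169000, 192000 and 135000 in gun1 and 262000, 258000 and 224000 in fug1. In replicates 1 and 2 rbcL was thus near the wild-type range and below both single mutants. In replicate 3 its TMM-scaled value was higher than in any other library. There the TMM factor of 0.0723 made 1 count worth 1.2 CPM. CPM of that library therefore do not show the share of a gene in its counts, and a rise of rbcL is not established. psbB, a core protein of photosystem II, measured 10500, 9360 and 80400 CPM in gun1 fug1, 9270 to 9490 in wild type, 11800 to 15100 in gun1 and 19300 to 28100 in fug1 (-1.80 ± 0.30, adjusted p = 0.00335 without replicate 3). The protease gene clpP1 was below the sum without it (-1.56 ± 0.31, adjusted p = 0.00992) and rpoB, of the plastid RNA polymerase, above (1.26 ± 0.32, adjusted p = 0.0388). The 17 ribosomal protein genes of the plastid had medians of 3.14 and 1.65 and none passed in either fit. Scaled by library totals alone, the photosynthesis median was -0.29 with 12 libraries and -0.07 with 11, where the median of all genes was 0.50 and 1.05. With that scaling and 11 libraries, 3 photosynthesis genes were above the sum and 3 below, so the 16 calls depended on the scaling. The plastid share of counts was 68.5% to 73.1% in wild type, 75% to 76.7% in gun1 and 81.7% to 84.4% in fug1. In gun1 fug1 it was 70.9% and 70.8% in replicates 1 and 2, within the wild-type range, and 53.5% in replicate 3. The part of this share in the values above was not tested. ATCG00450, a plastid locus with no name in the files, was the one plastid gene called with 12 libraries (-1.93 ± 0.46, adjusted p = 0.0371, and 0.00158 to 0.168 with 1 library left out).

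**Figure D5:**
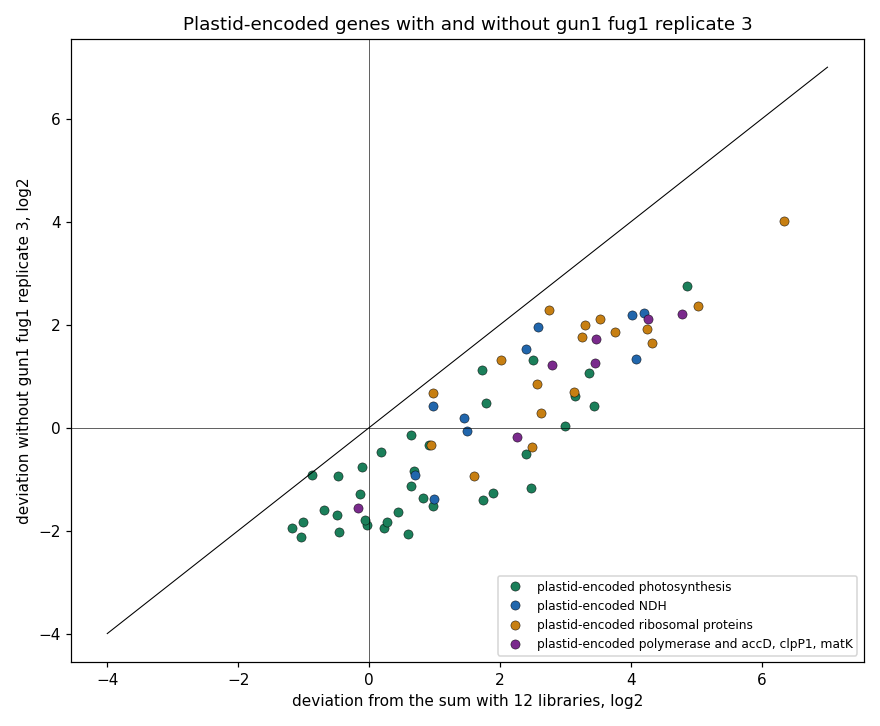
Each point is a plastid-encoded gene, with its deviation from the sum with 12 libraries on the x axis and without gun1 fug1 replicate 3 on the y axis (both log2); the diagonal marks equal values. The points lie below the diagonal, and the photosynthesis genes (green) move from a median of 0.64 to -1.18.

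Nuclear photosynthesis genes gave few calls. Of 20 light-harvesting genes none was called in either fit (medians -0.33 and -0.23), of 30 nuclear photosystem genes FNR2 alone with 12 libraries (medians -0.23 and -0.11), and of 18 Calvin cycle genes 0 with 12 libraries and 1 with 11 (medians -0.06 and 0.13). Of 15 clock genes and 4 flavonoid genes none passed in either fit, with medians of 0.34 and -0.52 with 12 libraries. At the recovery of 2-fold deviations given above, most deviations of that size were not detectable here. Several genes above overlap a neighbouring locus, among them CPN60B, Cpn60beta2, cpHsc70-1, SCO1, FER1, FER4, PCAP1, JAC1, CCD1, GolS1, AT1G74675, MRD1, OLEO1, CKX5, APS3, BCAT4, EDA9, EX1, ALB1 and RPL24; the strandedness of the counting is not given in the sources used here, so reads of such a gene and its neighbour cannot be told apart.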

How the data were processed

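RNA-seq read counts per gene were used for 12 libraries of seedlings, 3 per genotype. The authors deposited raw counts, 1 table per library; the tools, per the submitters' processing notes, were Trimmomatic, FastQC, TopHat2 2.1.1 and featureCounts with the TAIR10 genome, and the strand setting is not given in the sources used here. Genotypes and replicate numbers were taken from the sample titles. Counts were fitted with edgeR 4.0.16 (limma 3.58.1, R 4.3.3): edgeR's default filter on low counts, TMM scaling, 1 quasi-likelihood fit over 4 genotypes, and Benjamini-Hochberg adjustment over all genes tested at 0.05. The contrast was (gun1 fug1 minus fug1) minus (gun1 minus wild type). CPM are counts divided by the TMM-scaled library size, and the log2 levels behind the root and seed averages used a prior count of 2. The SE of a deviation is its size divided by the square root of edgeR's F. The whole procedure was run with 12 libraries and again without gun1 fug1 replicate 3. On simulated counts it made 9 false calls among 15371 genes with 12 libraries and 7 among 16201 with 11, and no recovered change had the wrong sign (0). In each simulation 100 genes were changed 4-fold and 100 were changed 2-fold in gun1 fug1. All other genes had the same mean level in every genotype. The simulated counts thus held no single-mutant effects and not the composition of gun1 fug1 replicate 3. Precision is limited by depth: totals were 8519197 to 12360838 counts, of which most were plastid.

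Genes named are GUN1 and FUG1; the genes with the smallest p in each single-mutant class and direction, called in both fits, with a symbol and a highest group mean of 50 counts or more; those called with 12 libraries only; and leading members of lists with called members. TIC110, SCO1, MRN1 and ATCG00450 lay outside this rule and were chosen after their values were seen. Other exceptions are said to have been so chosen, or are list members given for comparison. Members and the 28 gene lists were chosen with earlier results of these data known, and the lists were corrected against the annotation after the counts had been seen. Gene names, coordinates and promoters are from RefSeq TAIR10.1; names of plastid genes are the usual ones for their locus numbers. Alternatives were other scalings, filters, tools (DESeq2 1.42.0, limma-voom), organelle genes left out, the root level as covariate, a replicate block and each library left out; those run on 11 libraries, other than leaving that library out, were chosen after seeing the data.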

Additional observations from a re-analysis of the deposited data

Results flagged for a closer look

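In the genes below, the effect of gun1 in the fug1 background differed from its effect in the wild-type background by the interaction test of edgeR in both fits; values are the deviations without gun1 fug1 replicate 3 (log2). Groups of 3 libraries are too small to test a single library as an outlier for a given gene. Each library was instead left out in turn. Of the 55 genes described above and called with 12 libraries, 13 stayed called in every such fit. Among genes for plastid proteins, the deviation was 2.44 for CR88, 2.09 for CPN60B, 1.72 for Cpn60beta2, 1.27 for cpHsc70-1, 1.48 for AT5G01590, 1.48 for emb1211, 1.97 for emb2726, 1.51 for RRF, 1.70 for AT4G17560, 1.99 for HDR, 1.84 for HEMA1, 1.84 for FER1, 1.90 for FER4, 1.71 for EX2 and 2.42 for EMB1865. Among other genes above the sum it was 2.31 for PCAP1, 2.35 for CIPK20, 4.36 for SKIP5, 1.32 for HOL1, 1.76 for CCD1, 1.84 for CYP72A15, 1.92 for COR47, 1.51 for JAC1, 3.4 for AT5G48570 and 2.90 for HSP90.1.

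Below the sum, genes higher in both single mutants had deviations of -2.96 for MRD1, -3.60 for LTP4, -2.15 for ICL, -1.91 for NCED3 and -2.64 for OLEO1. Genes higher in fug1 had -1.34 for GH9C2, -1.79 for LOX2, -1.54 for ZIF1, -1.26 for FLA1 and -5.89 for BCAT4, the last from 0, 1 and 0 counts in gun1 fug1. The deviation was -2.33 for CKX5, -1.20 for CLV1, -1.75 for APS3 and -1.03 for EXPA11.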

How the results depend on the processing

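The count above the sum (123) became 0 with library totals, 353 with no filter, 56 with limma-voom, 9 with the root level as covariate and 14 at an adjusted p under 0.01. The count below (83) became 0, 281, 37, 9 and 9 in the same order, and 51 with a stricter filter. Without gun1 fug1 replicate 3, the counts above and below were 255 and 177, with library totals 7175 and 40, without organelle genes 265 and 146, with DESeq2 257 and 213, with limma-voom 145 below, and with the root level as covariate 67 above and 93 below. Leaving out 1 library gave 13 to 385 above and 11 to 305 below. The correlation of deviations was -0.082 to 0.36 over 18 same-numbered pairs of libraries and -0.388 to 0.167 over 36 others. The highest values joined wild type and gun1, at 0.36 for replicate 3 and 0.315 for replicate 1. Whether replicate numbers pair the libraries was not tested. With a replicate block 163 genes were above and 129 below, and 407 and 335 with 11 libraries. The median deviation of genes higher in both single mutants (-1.39) was -0.90 with a stricter filter, -0.54 with classes by sign alone, and with 11 libraries -1.03 with library totals, -1.02 with limma-voom and -0.82 with the replicate block; with 1 library left out it ran from -1.79 to -1.06. That of genes lower in both (1.29) was 0.49 with classes by sign alone and ran from 1.13 to 1.63. Library totals and the root covariate with 12 libraries left no gene in these classes, so no median was given. Values that turned sign were the deviation of AT1G17220 FUG1 with the root covariate (-0.0004338 and -0.0014), EXPA11 with library totals in 11 libraries (0.087), CRA1 on the linear scale (1.3 wild-type levels), and rbcL (0.0015 with RLE factors and DESeq2, 0.35 with a stricter filter, 0.90 on the linear scale), psbB (0.31 with a stricter filter, 0.58 on the linear scale) and clpP1 (0.19 with a stricter filter). With 1 library left out, rbcL ran from -1.89 to 0.38, psbB from -1.80 to 0.36 and clpP1 from -1.56 to 0.20. The cause of these changes was not tested. On the linear CPM scale all 123 and 83 calls kept their sign. For a gene above the log2 sum whose single effects share a direction, the linear sign follows by arithmetic. The linear scale is therefore no check of such genes. With library totals, where all genes had medians of 0.50 and 1.05 with 12 and 11 libraries, several negative list medians turned positive: light-harvesting 0.35 and 0.90, nuclear photosystem 0.45 and 1.01, flavonoids 0.08 and 0.65, glucosinolates 0.26 and 0.85, oil mobilisation 0.11 and 0.65, dividing cells 0.11 and 0.78, mitochondrial dysfunction 0.37 and 0.93, and, with 12 libraries, Calvin cycle 0.71 and oxidative stress 0.65. That of response regulators and cytokinin oxidases did so with 11 (0.95).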

Other observations

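Counts of 2 nuclear ribosomal RNA loci differed among the gun1 fug1 libraries. AT2G01010 had 1579 counts in replicate 1 and 908 in replicate 2, against 3 to 36 in the other 10 libraries, and AT3G41768 had 40619 in replicate 2, against 105 to 1197 elsewhere. In gun1 fug1 replicate 3 a pair of loci, RR3 and AT2G09250, held 15.6% and 15.4% of all counts. Elsewhere RR3 held 0.333% (wild type replicate 3) to 2.38% (gun1 fug1 replicate 1), and AT2G09250 held 0.329% to 2.31% in the same libraries. The shares of the 2 loci were close to each other in every library, and whether they are separate transcripts was not tested.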
